A study of Mus musculus with 47 samples.

Results

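The cytosolic ribosomal protein genes encode the proteins of the ribosomes that translate nuclear messenger RNAs. The members were taken by name from the deposited gene table, as protein-coding genes named Rps or Rpl with a number, plus Rpsa, Rplp0, Rplp1 and Rplp2. The rule found 80 genes among 53697 in the table, of which 21845 are protein-coding. The small subunit, which reads the messenger RNA, contributed 31 members. The large subunit, which forms peptide bonds, contributed 49, with the 3 stalk proteins that recruit translation factors (Rplp0, Rplp1 and Rplp2) included. Rps3a1, Fau, Rpl36al and Rpl22l1 also encode ribosomal proteins or close relatives but do not match the name rule, and they were followed as a separate list.

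The study cultured primary microglia from the mouse forebrain, in DMEM with fetal bovine serum, and sequenced polyA-selected RNA from 47 libraries in 10 groups. Microglia are the resident macrophages of the brain, and APOE is a lipid carrier protein whose E4 form raises the risk of Alzheimer's disease. The genotypes were wild type (WT, C57BL/6 mice of the Jackson Laboratory), E3 and E4 (C57BL/6 mice of Taconic in which both Apoe alleles encode human APOE ε3 or ε4), Apoe heterozygous (Het) and Apoe knockout (KO, the same Jackson line as the Het mice). Each genotype was left untreated or given myelin for 3 h and collected the next day. WT, E4 and KO had 5 libraries per condition, E3 had 4 per condition, and Het had 5 untreated and 4 myelin libraries. Animal age was not used here. Genotype and source line cannot be told apart in any comparison between lines from different sources. Nothing in the labels ties a replicate to its own animal or culture. Every p-value here thus reflects only how far libraries of a group lie apart, and that spread may be technical.

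Mouse Apoe matched the labels of WT, KO, E3 and E4. Its untreated medians were 58841 scaled TPM in WT, 73.1 in KO, 111 in E3 and 163 in E4. The untreated Het median was 47302. Untreated Het libraries ran from 12909 to 59525.5 and overlapped the WT range of 46678 to 63640, so this level did not tell Het from WT. Scaled TPM is the authors' TPM divided by the nuclear protein-coding total of the library and multiplied by 1000000. Apoe is part of that total, so its 58841 of 1000000 in WT lowers the scaled values of all other genes there. In KO, E3 and E4 it takes far less of the total. The part of this in the comparisons against WT was not tested. The step was needed because Gm23935, a short noncoding gene, held 69.4% to 99.0% of the deposited TPM, which left a nuclear coding share of 0.468% to 27.3%. Markers of microglia summed to group means of 11679 to 17666 scaled TPM. Markers of fibroblasts and pericytes summed to group means of 129 to 2377 and those of astrocytes to 38.9 to 2341, so the cultures also held RNA of other cells. In bulk libraries, fewer cells of a type and less RNA per cell cannot be told apart.

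Ribosomal proteins are assembled in fixed proportions, and many of their messenger RNAs begin with a C followed by a run of pyrimidines, the 5′ terminal oligopyrimidine or TOP motif. Through that motif the kinase complex TORC1 and the RNA-binding protein LARP1 set how strongly these messages are translated and how stable they are. Ribosomal protein transcripts are therefore often read as a sign of growth state, and in macrophages they share the cell's output with secretory and lysosomal genes.

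RefSeq start-site windows on GRCm38.p6 were found for 60 of the 80 members, and the windows printed here show how the pyrimidine run sits around the start in members that the later results turn on. Each runs from 25 bases before to 25 bases after the annotated start, and capitals mark the longest run of a C followed by 4 or more pyrimidines. Rpl27a and Rps18 carry a run that begins a few bases before the annotated start. Rpl31 carries it further upstream, Rps13 downstream, and Rpl10 and Rpl27 have no run of that length in this window.
Rpl27a, chr7:109519170-109519219, plus strand: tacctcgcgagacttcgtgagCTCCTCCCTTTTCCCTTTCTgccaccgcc
Rps18, chr17:33955641-33955690, minus strand: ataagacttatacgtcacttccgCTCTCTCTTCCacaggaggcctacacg
Rpl28, chr7:4792940-4792989, plus strand: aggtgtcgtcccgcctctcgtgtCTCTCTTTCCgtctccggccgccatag
Rpl31, chr1:39367826-39367875, plus strand: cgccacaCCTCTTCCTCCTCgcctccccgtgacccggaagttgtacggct
Rps13, chr7:116334166-116334215, minus strand: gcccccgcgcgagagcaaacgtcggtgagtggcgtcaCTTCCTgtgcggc
Rpl27, chr11:101442220-101442269, plus strand: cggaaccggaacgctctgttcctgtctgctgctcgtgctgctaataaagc
Rpl10, chrX:74270791-74270840, plus strand: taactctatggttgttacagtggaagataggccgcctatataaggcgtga

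A C followed by at least 6 pyrimidines on the sense strand lay within 25 bases of the start in 35 of the 60 members (58.3%), against 25.6% of the 27025 genes with a window. A C and 4 pyrimidines exactly at the start base occurred in 13 members (21.7%) and in 3.01% of all genes. The letters CTTTC on the sense strand occurred in 19 members (31.7%) and in 7.87% of all genes. Over the full window of 250 bases before to 50 after the start, GGAAG on either strand was found in 55 members (91.7%) and in 73.9% of all genes. TATAAA in the 60 bases before the start was found in none of the 60 and in 3.44% of all genes. A match is a description of letters in the window, and the motifs overlap one another.

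At the level of transcripts the members were among the most abundant genes of these cells. The median over the 47 libraries was 555 scaled TPM for the middle member, against 17.7 for the middle of the 10905 genes tested. Among the highest members were Rpl41, with a median of 1961 scaled TPM, Rpl13 with 1579, Rps29 with 1553 and Rps14 with 1347. In all, 73 members had a median of at least 100 scaled TPM and 15 of at least 1000. The 10 highest held 29.6% of the summed medians. TPM is per length, so these levels can be compared between genes. A total of 78 members passed the filter on low values, which asked for 5 scaled TPM or more in 4 or more libraries. Rpl10l and Rpl3l, paralogs known from testis and from muscle, did not pass it and were not tested: Rpl10l was listed at 0 in 40 libraries and Rpl3l had a median of 0.215 scaled TPM. Rpl39l, another paralog with a restricted pattern, was tested at a median of 3.89 scaled TPM.

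A few members had low values of their own beside an almost identical gene with higher ones. The coding sequence of Rpl12 is 100% identical over its 495 bases to the gene Gm10275, and that of Rpl5, one of the 5S particle proteins, over its 891 bases to Gm15500. The opening 60 coding bases, the same in the member and in the copy, are a stretch in which reads of both cannot be told apart:
Rpl12 and Gm10275: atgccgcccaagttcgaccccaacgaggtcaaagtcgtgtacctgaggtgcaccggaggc
Rpl5 and Gm15500: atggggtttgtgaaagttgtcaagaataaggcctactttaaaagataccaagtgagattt
Rps12 and Rps12l1: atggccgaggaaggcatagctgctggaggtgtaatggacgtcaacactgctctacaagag
Rpl12 had a median of 17.5 scaled TPM alone and 409 with its copies. Rpl5 went from 19.6 to 395, Rps12 from 61.7 to 547 and Rpl27a from 88.9 to 470. Rpl10 went from 466 to 1125 and Rps23 from 340 to 987. These 6 were the members whose copies lay above their own level. Their single-gene differences are uncertain, and each is given below with the value for the summed copies where the results turn on it. Over all members the median share of 31-base words found in other genes was 42.7%, and 26 members shared more than 50% of theirs. Rps9, Rpl31, Rps24, Rps27l and Rpl39l had no such copy, and the copies of Rpl27 and Rps13 held 9.95% and 3.13% of the summed level. The copies of Rpl28, Rps16 and Rpl37 held more, at 46.3%, 32.6% and 28.4%. Differences given below for these members are those of the member alone and carry the same uncertainty.

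**Figure D1:**
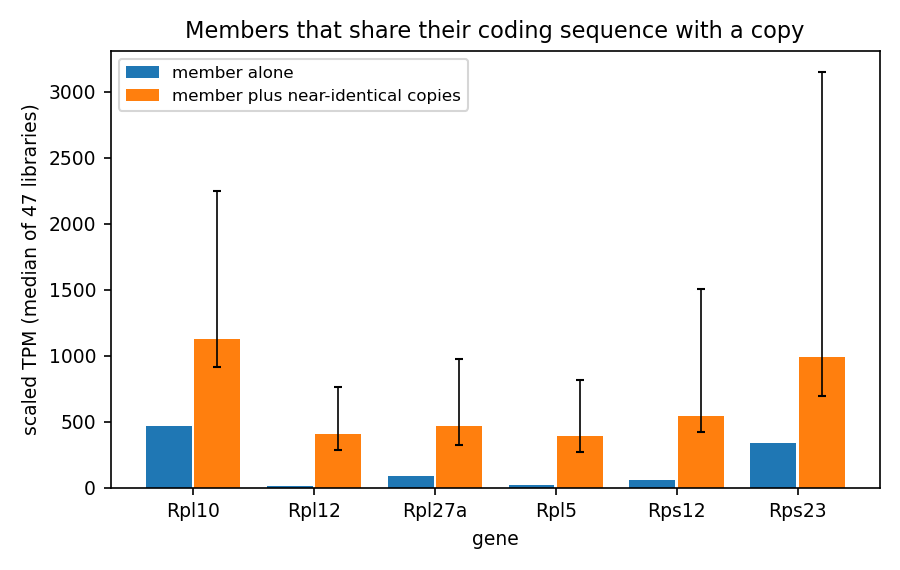
Median level over 47 libraries of 6 members alone (blue) and summed with their near-identical copies (orange), in scaled TPM on a linear axis that starts at 0; whiskers give the lowest and highest library for the sum. Rpl12 went from 17.5 to 409 and Rpl10 from 466 to 1125.

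The members together held 3.79% to 9.38% of the nuclear coding total, and the groups differed in level and in spread. Untreated WT libraries held 5.21%, 5.35%, 5.54%, 4.89% and 5.17% (mean 5.23% ± 0.240, SD, n = 5). Untreated KO libraries held 3.79%, 4.72%, 4.39%, 4.10% and 4.55% (4.31% ± 0.369, n = 5), so every KO library was below every WT library. Untreated E3 libraries held 7.13%, 6.92%, 6.26% and 6.19% (6.63% ± 0.469, n = 4), all above WT. Untreated E4 libraries spread from 4.82% to 7.46% (5.72% ± 1.10, n = 5), on both sides of WT. After myelin the means were 5.56% ± 0.728 in WT (n = 5), 5.41% ± 0.701 in E3 (n = 4), 4.46% ± 0.391 in E4 (n = 5) and 4.09% ± 0.279 in KO (n = 5). Het libraries were the most uneven, at 6.47% ± 2.61 untreated (n = 5) and 6.90% ± 1.77 after myelin (n = 4).

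**Figure D2:**
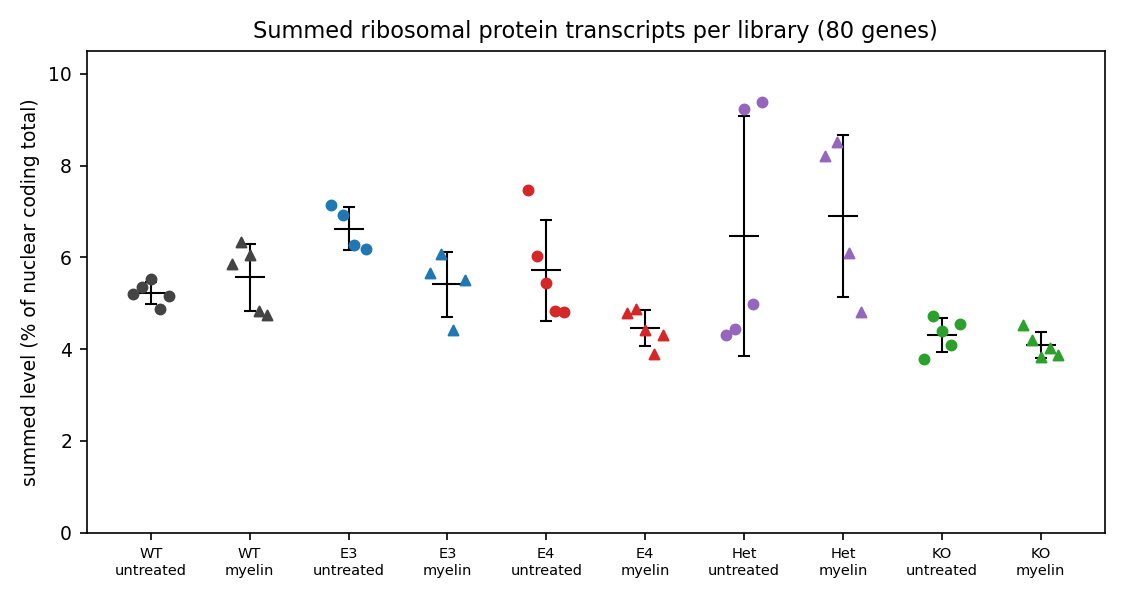
Summed level of the 80 genes in each library, in percent of the nuclear coding total, by genotype and treatment; points are libraries (circles untreated, triangles myelin), bars the group mean ± SD. The KO points lie below the WT points in both conditions, and 4 Het libraries lie between 8.20% and 9.38%.

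The summed level moved with the nuclear coding share of the library. The 4 libraries with a coding share under 6%, all Het (untreated replicates 3 and 5, myelin replicates 1 and 2), held 8.20% to 9.38%, and the other 43 held 3.79% to 7.46%. In 7 of the 10 groups the library with the lowest coding share had the highest summed level. Within the 8 groups of WT, E3, E4 and KO, a limma fit of each gene on the log2 coding share called 74 of the 78 members lower with a higher share and 1 member, Rpl10, higher. Over all 10905 genes 8.2% were called lower and 35.7% higher. The median slope per doubling of the coding share was -0.42 for the members and 0.15 for all genes, on the log2 scale. The steepest members were Rps12 at -1.11 ± 0.19 (SE), Rps20 at -0.72 ± 0.16 and Rpl28 at -0.72 ± 0.09. Rps12 and Rpl10 are among the members whose copies lay above their own level, and their slopes are those of the member alone. The share is also the denominator of the scaled values. Its part in the comparisons was examined with the share as a covariate, an alternative added after the data were seen, and its counts are given with the comparisons below.

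**Figure D3:**
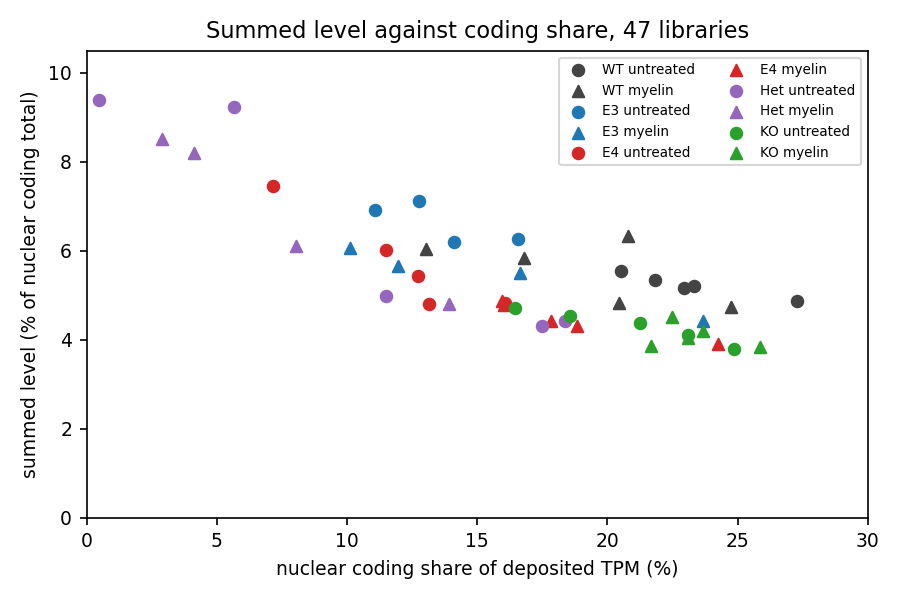
Summed level of the 80 genes (percent of the nuclear coding total) against the nuclear coding share of the deposited TPM (percent) in 47 libraries; colours give the genotype, circles untreated and triangles myelin. The 4 points with a share under 6% lie at 8.20% to 9.38%, and the other 43 at 3.79% to 7.46%.

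The members also varied together from library to library. After group means were removed, the median correlation between pairs of the 78 members was 0.80 over 38 libraries. It was 0.175 between pairs of 78 mitochondrial ribosomal protein genes, which serve the separate ribosome of mitochondria. The points share library, scaling and depth, so these values describe the libraries. A total of 65 members had a correlation above 0.8 with the mean of the others, led by Rps10, Rpl21 and Rps19 at 0.97. Rpl10, which lies at the peptidyl transferase region of the large subunit, stood at -0.10 and Rpl5 at 0.18, and both have abundant copies. Rpl39l stood at 0.39.

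Myelin given to WT microglia changed no member beyond the threshold. Of the 78 members 0 were called in limma (adjusted p under 0.05), and 0 had an unadjusted p under 0.05, while 4.67% of all tested genes were called, 4.17% higher and 0.495% lower. The members' log2 differences, myelin minus untreated, ran from -0.08 to 0.20 with a median of 0.08. Rps6, the substrate of S6 kinase, had a difference of 0.08 ± 0.07 (SE). Rps29, a short zinc-binding protein of the small subunit, had 0.13 ± 0.12. Rplp0 had a difference of 0.06 with an adjusted p of 0.63 in limma. Each alternative run for this comparison, each WT library left out in turn included, also gave 0 members.

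In E3 microglia 13 of the 78 members (16.7%) fell after myelin and none rose, against 3.46% of all genes lower and 3.13% higher (6.58% in all). The median member difference was -0.31, with 77 of 78 negative, beside 0.00 for all genes. Rpl29, a large subunit protein that also binds heparin at the cell surface, stood at 844, 847, 736 and 773 scaled TPM untreated and at 634, 592, 515 and 582 after myelin. All myelin libraries were below all untreated ones, with a log2 difference of -0.46 ± 0.12 (limma adjusted p = 0.019). Rps18, at the head of the small subunit, was at 1389, 1330.0, 1256 and 1327 untreated and at 1012, 1025, 940.2 and 1038 after myelin (-0.40 ± 0.09, adjusted p = 0.0057 in limma). These groups were also separate. Rps13 fell by 0.45 ± 0.12, Rpl15 fell by 0.45 ± 0.12 and Rpl8 fell by 0.40 ± 0.10. Rps27l fell by 0.36 ± 0.08 and Rps6 fell by 0.28 ± 0.08, while Rplp0 had -0.21 (adjusted p = 0.061 in limma) and Rpl41 -0.31 (adjusted p = 0.155).
The count rested on few libraries: it was 1 without E3 untreated replicate 1, 4 without E3 untreated replicate 2 and 2 without E3 myelin replicate 3. With TMM library factors it was 2, with 7.98% of all genes called in either direction. The share of called genes that were higher went there from 47.5% to 57.8%. With the coding share as a covariate 45 members fell (10.3% of all genes called). The count was 7 with no filter on low values (1.81%) and 35 with library weights (14.8%). In a fit of all 47 libraries without weights it was 0, with 0.101% of all genes called.

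In E4 microglia 51 of the 78 members fell after myelin and 1, Rpl10, rose, against 6.74% of all genes lower and 6.85% higher. The median member difference was -0.36, beside 0.00 over all genes. Rps20, a protein of the small subunit head, was at 427, 388, 228, 178 and 217 scaled TPM untreated and at 212, 183, 145, 123 and 123 after myelin (-0.82 ± 0.22, adjusted p = 0.0099 in limma). The groups overlapped, and the untreated libraries themselves ranged from 178 to 427. Rpl28 fell by 0.59 ± 0.17, Rpl37 fell by 0.59 ± 0.17 and Rpl37a fell by 0.58 ± 0.15. Rps12 fell by 0.84 ± 0.28 alone, but with its copies summed the difference was -0.31 (adjusted p = 0.12 in limma). Rps18 fell by 0.27 ± 0.08, with all myelin libraries below all untreated ones. Rpl41 fell by 0.41, Rps29 by 0.45 and Rpl39, which lines the peptide exit tunnel, by 0.45, while Rplp0 had -0.08 (adjusted p = 0.42 in limma) and Rpl5 -0.09 (adjusted p = 0.56). Only 13 members had all myelin libraries below all untreated ones, and 4.85% of all genes did. In E3, with 4 libraries per condition, 34 members and 8.53% of all genes did.
The E4 groups differed in coding share, at 7.16% to 16.1% untreated and 16% to 24.3% after myelin. With the share as a covariate 0 members were called, beside 8.71% of all genes in either direction (13.6% in the main fit). With TMM factors 29 members were called (14% of all genes) and with no filter on low values 31 (4.53%). In a fit of all 47 libraries without weights 1 was called (2.72%). The count was 7 without E4 untreated replicate 1, which held the highest summed level of that group, 28 without E4 untreated replicate 2 and 21 without E4 myelin replicate 4. Rpl10 rose by 0.24 ± 0.08 alone and had a difference of -0.12 with its copies summed (adjusted p = 0.44 in limma).

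In KO microglia the members were nearly level after myelin, with a median difference of -0.08. Of 78 members 1, Rpl39l, was called higher, against 1.14% of all genes, and 0 lower, against 1.71% (2.85% of all genes in both directions). At an unadjusted p under 0.05, 2 members were higher and 1 lower. Rpl39l replaces Rpl39 at the exit tunnel in the male germ line. It was at 3.09, 3.31, 4.04, 2.55 and 3.89 scaled TPM untreated and at 8.34, 7.71, 3.53, 6.07 and 6.10 after myelin (0.72 ± 0.18, adjusted p = 0.021 in limma). The third myelin library lay within the untreated range. All untreated KO libraries lay below the 5 scaled TPM of the filter, so the gene passed it through other groups. Its p-value is given as a description. The call was lost without any 1 of 4 libraries, KO untreated replicates 1 and 4 and KO myelin replicates 1 and 2. It was also lost in a fit of all 47 libraries without weights, where 0.101% of all genes were called. With the coding share as a covariate 2 members were higher (3.66% of all genes called), as with library weights (5.42%).

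In Het microglia 36 members were called higher after myelin and 0 lower, against 2.56% of all genes higher and 11.8% lower. The fit weighted libraries, because 4 of the 9 Het libraries had a coding share under 6%. Rps20 was at 190.3, 187, 639, 188 and 651 scaled TPM untreated and at 661, 765, 348 and 194 after myelin (weighted log2 difference 0.79 ± 0.27, adjusted p = 0.045 in limma). The groups overlapped, and the libraries above 600 in each group were the 4 of low coding share. Rpl13a had a weighted difference of 0.67 ± 0.20, Rpl21 0.61 ± 0.16 and Rpl41 0.58 ± 0.15. In a fit without the 4 libraries and without weights 0 members and 0.193% of all genes were called. A fit of all 47 libraries without weights also gave 0 (0.899% of all genes), so the effect of the 4 libraries alone was not tested. The count was 0 with the coding share as a covariate (0.0825%) and with no filter on low values (0.437%). It was 2 with TMM factors (3.95%) and 22 with a pseudocount of 0.1 (10.9%). With a replicate block 1 member was higher and 3 lower, with 14.2% of all genes called. The main fit called 14.4% of all genes. The count was 0 without Het untreated replicate 1 or without Het myelin replicate 3, and 62 without Het untreated replicate 3.

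The differences between responses were tested directly. For E4 against E3, 0 of 78 members were called in limma and 1 had an unadjusted p under 0.05. No gene of the 10905 (0% called) passed there. With the coding share as a covariate 4 members passed, as did 103 of all genes (0.945%). For KO against WT, 0 members were called, 1 had an unadjusted p under 0.05, and 1.76% of all genes were called, 1.17% lower and 0.587% higher. The median member difference between responses was -0.04 for E4 against E3 and -0.16 for KO against WT. More members were called in E4 than in E3, but the direct test of the difference between these responses called 0 members in the main fit. The 2 counts are therefore not themselves evidence of a difference.

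**Figure D4:**
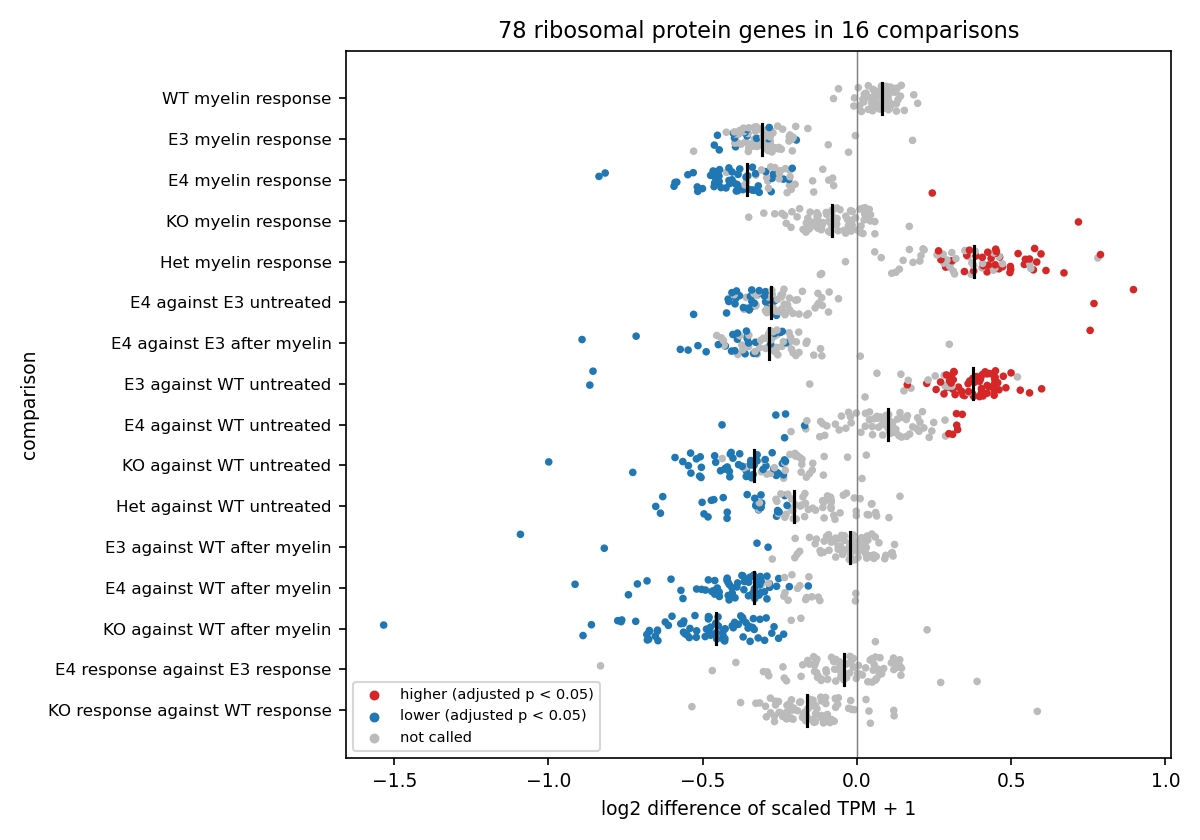
Log2 differences of the 78 tested members in 16 comparisons (first group minus second, log2 of scaled TPM + 1); points are genes, red called higher, blue called lower and grey not called at an adjusted p of 0.05 in limma, black bars the member median. In E3 against WT untreated 75 of the 78 points lie to the right of 0, and in each KO against WT comparison 76 lie to the left.

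Between the humanised lines, 76 of 78 member differences were negative in untreated cells and 75 after myelin, E4 minus E3. In untreated cells 26 members were lower in E4 and 2 higher, against 9.16% of all genes lower and 8.36% higher, with a member median of -0.28. After myelin 26 members were lower and 1 higher, against 5.54% and 6.66% of all genes, with a median of -0.29. Rpl7a, a large subunit protein, was lower by -0.42 ± 0.09 in untreated cells (adjusted p = 0.00067 in limma), with all 5 E4 libraries below all 4 E3 libraries. Rpl15 had -0.42 ± 0.11. Rpl12 had -0.53 alone (adjusted p = 0.0183 in limma) and -0.43 with its copies summed (adjusted p = 0.026). Rps27l, a p53-responsive copy of Rps27, was at 848, 719.7, 657, 632 and 563 scaled TPM in untreated E4 and at 996, 829, 874 and 899 in untreated E3 (-0.41 ± 0.08, adjusted p = 0.00035 in limma). The highest E4 library lay within the E3 range. After myelin Rps27l had -0.27 ± 0.08, with no overlap. Among members lower in E4 after myelin, the largest differences were those of Rps12 (-0.89 alone, and -0.38 with its copies summed, adjusted p = 0.076 in limma), Rps20 (-0.72), Rpl28 (-0.57), Rpl27 (-0.55) and Rpl37 (-0.52). Rps6 was lower in both conditions, by -0.32 and -0.24 on the log2 scale. Rps19, the gene most often mutated in Diamond-Blackfan anaemia, was lower by -0.30 and -0.36. Rpl41, Rps29 and Rps4x had differences between -0.22 and -0.09 in both conditions and passed in neither.
The untreated count was 17 without E3 untreated replicate 1 and 57 without E4 untreated replicate 1. After myelin it ranged from 4 without E3 myelin replicate 2 to 56 without E3 myelin replicate 3, and was 11, 8, 12, 8 and 9 without E3 myelin replicates 1 and 4 and E4 myelin replicates 3, 4 and 5. With the coding share as a covariate 70 members were lower in untreated cells and 14 after myelin, and with TMM factors 12 and 3. With library weights 52 and 62 members were lower, and in a fit of all 47 libraries without weights 2 and 0. With no filter on low values 11 were lower after myelin. The main fit called 17.5% of all genes untreated and 12.2% after myelin, in either direction. The covariate fit called 25.8% and 18.1% of them, and the fit with TMM factors 19.2% and 13.1%. Library weights gave 25.9% in both conditions, the unweighted fit 6.26% and 4.26%, and no filter 5.74% after myelin. Astrocyte marker sums were 1782 to 3298 scaled TPM in untreated E4 and 927 to 1163 in untreated E3, and fibroblast sums 686 to 1018 and 1850.0 to 2341. Their part in the member differences was not tested.

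The comparisons of E3, E4, KO and Het against WT share their WT controls, so the values of each are given side by side. In untreated cells 61 members were higher in E3 than in WT and 2 lower, against 29.1% of all genes higher and 25.6% lower, with a member median of 0.38. A total of 58 members had all 4 E3 libraries above all 5 WT libraries, as did 24.7% of all genes. Rpl31, at the exit of the peptide tunnel, was at 500.2, 457, 448 and 377 scaled TPM in E3 and at 297, 309.9, 313, 259.5 and 287 in WT (0.60 ± 0.14, adjusted p = 0.0005 in limma). Each E3 library exceeded each WT library. Rpl21 had 0.56 ± 0.13, Rpl28 0.53 ± 0.18, Rps4x 0.50 ± 0.12 and Rpl35 0.48 ± 0.12. Rps27a, made as a fusion with ubiquitin, had 0.41 and Rplp0 0.27. Rpl10 had 0.03 alone and was not called, but had 0.47 with its copies summed (adjusted p = 0.00021 in limma). All 3 stalk members, 23 of 31 small subunit members and 35 of 44 tested large subunit members were higher.
The coding share was 11.1% to 16.6% in untreated E3 and 20.5% to 27.3% in untreated WT, without overlap. Library coding share and line therefore cannot be told apart here, and with the share as a covariate 0 members were higher and 3 lower, with a median of 0.03. With TMM factors 38 members were higher, and in a fit of all 47 libraries without weights 14. Of all genes, 54.7% were called in the main fit, 37.3% with the covariate, 56.5% with TMM factors and 37.5% in the unweighted fit. Astrocyte marker sums were 927 to 1163 scaled TPM in untreated E3 and 127 to 153 in untreated WT, without overlap. Fibroblast sums, 1850 to 2341 in E3 and 1882 to 2508 in WT, overlapped. The part of either in the member differences was not tested.

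After myelin the same contrast gave 0 members higher and 4 lower, against 20.7% and 11.8% of all genes (32.5% in all), with a median of -0.02. With TMM factors the share of called genes that were higher went from 63.7% to 50.3%. The 4 were Rps9, Rpl39l, Rps13 and Rpl5, whose difference with its copies summed was -0.18 (adjusted p = 0.152 in limma). The count was 2 without WT myelin replicate 3. It was also 2 in a fit of all 47 libraries without weights, where 19.1% of all genes were called. With the coding share as a covariate 30 were lower, with 37% of all genes called.

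For E4 against WT, untreated cells showed 6 members higher and 5 lower (32.6% and 31% of all genes), with a median of 0.10. Rps29 had 0.34 ± 0.12, Rpl31 0.33 ± 0.13, Rpl41 0.32 ± 0.13 and Rps4x 0.32 ± 0.12, each with groups that overlapped. Rps27l was lower by -0.26 ± 0.08, Rps3 by -0.23 ± 0.06 and Rpl4 by -0.17 ± 0.05. Rpl5 had -0.44 alone and -0.14 with its copies summed (adjusted p = 0.164 in limma). Rpl10 had -0.23 alone and 0.21 with its copies summed (adjusted p = 0.047 in limma). The count was 17 without E4 untreated replicate 4 and 19 without replicate 5. With TMM factors 0 members were higher and 5 lower, and in a fit of all 47 libraries without weights 0 and 2. These fits called 64.9% and 49.4% of all genes, and the main fit 63.6%. The covariate fit called 59 members lower and 0 higher, and 46.7% of all genes. Coding shares did not overlap (7.16% to 16.1% in E4). Fibroblast marker sums were 686 to 1018 scaled TPM in untreated E4 and 1882 to 2508 in untreated WT. Astrocyte marker sums were 1782 to 3298 in untreated E4 and 127 to 153 in untreated WT. Neither overlapped, and their part in the member differences was not tested.
After myelin 60 members were lower in E4 than in WT and 0 higher, against 21.5% of all genes lower and 29.5% higher, with all 78 differences negative and a median of -0.33. Rps13, a small subunit protein that contacts the large subunit, was at 544, 557, 479, 375 and 427 scaled TPM in E4 and at 839, 848, 818, 727 and 649.8 in WT (-0.71 ± 0.11, adjusted p = 1.15e-06 in limma). The groups were fully separate. Rpl27 had -0.74 ± 0.17 and Rps26 -0.60 ± 0.13, while Rpl10 had -0.005 and Rps4x -0.16 (adjusted p = 0.27 in limma). With the covariate 74 members were lower, and with any 1 library left out 43 to 64. In a fit of all 47 libraries without weights 22 were lower. The main fit called 51% of all genes, the covariate fit 55.7% and the unweighted fit 36.2%.

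The lowest levels were those of the KO. Untreated, 50 of the 78 members were lower in KO than in WT and 0 higher, against 29.5% of all genes lower and 26.5% higher, with a median of -0.33. After myelin 74 were lower and 0 higher, against 25.4% and 29.2%, with a median of -0.46. Rps13 was at 394, 542, 524, 480.2 and 505 scaled TPM in untreated KO and at 706, 738, 797, 669 and 693 in untreated WT (-0.56 ± 0.11, adjusted p = 3.51e-05 in limma). After myelin it was at 519, 493, 384, 388 and 364 in KO, below the WT range in every library (-0.86 ± 0.11, adjusted p = 2.56e-08 in limma). In neither condition did the groups overlap.
Rpl27, a large subunit protein, was at 361, 476, 562, 437 and 516 in untreated KO and at 833, 811, 784, 645 and 796 in untreated WT (-0.73 ± 0.17). After myelin its difference was -0.89 ± 0.17. Rps24, another gene of Diamond-Blackfan anaemia, had -0.59 ± 0.12 and -0.78 ± 0.12. All of these were separate between groups, and a total of 44 members untreated and 53 after myelin had every KO library below every WT library, beside 24.4% and 18.1% of all genes.
Rps12 had the largest single-gene differences, -1.0 ± 0.28 and -1.53 ± 0.28, but with its copies summed these were -0.19 (adjusted p = 0.25 in limma) and -0.34 (adjusted p = 0.03). Rpl5 was at 15.2, 19.6, 18, 17.8 and 18 in untreated KO and at 28.4, 28.4, 25.2, 24.4 and 25.3 in untreated WT (-0.55 ± 0.09), and it kept a difference of -0.57 with its copies summed (adjusted p = 1.72e-06 in limma). Rps6 had -0.38 and -0.45, Rpl39 -0.42 and -0.65, and Rpsa, which doubles as a laminin receptor, -0.41 and -0.53. The members that moved least were Rps29 (0.03 and -0.18) and Rpl10 (0.02 and 0.06), which passed in neither condition. With its copies summed Rpl10 had 0.04 and -0.13, and also passed in neither.
Here the coding shares overlapped, at 16.4% to 24.9% in untreated KO against 20.5% to 27.3% in WT, and at 21.7% to 25.9% against 13% to 24.8% after myelin. With the share as a covariate 71 and 72 members were lower, with TMM factors 38 and 73, and in a fit of all 47 libraries without weights 23 and 47. Of all genes, 59.5% and 54.6% were called with the covariate, 57.2% and 56% with TMM factors and 42% and 39.8% without weights. The main fit called 56% and 54.5%. Fibroblast marker sums were 123 to 769 scaled TPM in untreated KO and 1882 to 2508 in untreated WT, and their part in the member differences was not tested.

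Untreated Het libraries, from the same source line as the KO, gave 26 members lower than WT and 0 higher, against 39.5% of all genes lower and 20.1% higher (59.6% in all). The member median was -0.20, close to the -0.17 of all genes in that fit. With TMM factors the median of all genes was -0.03 there, and 6 members were lower. The share of called genes that were higher went from 33.7% to 47%. Rps27l was at 526, 512, 579, 537 and 217 scaled TPM in Het and at 805, 759.9, 849, 823 and 832 in WT (-0.63 ± 0.08, adjusted p = 1.04e-08 in limma), without overlap. Rps13 had -0.50 ± 0.12 and Rpl27 -0.64 ± 0.18. In a fit without the 4 Het libraries of low coding share and without weights 26 members were lower. With the coding share as a covariate 74 were lower. The count was 3 without Het untreated replicate 1, and 12 were higher and 11 lower in a fit of all 47 libraries without weights. That unweighted fit called 64.8% of all genes. TMM factors gave 57.1%, the fit without the 4 libraries 58.2% and the covariate fit 54.1%.

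Rps9, a protein of the small subunit body that helps keep decoding accurate, ran against most other members in untreated E3. Untreated E3 libraries were at 714, 684, 650.5 and 583 scaled TPM and untreated WT libraries at 1158, 1235, 1234, 1149.8 and 1163. Every E3 library was far below every WT library (-0.86 ± 0.08, adjusted p = 1.55e-10 in limma). After myelin E3 was at 611, 610.1, 514 and 556 and WT at 1259, 1389, 1302, 1043 and 1129.7 (-1.09 ± 0.08, adjusted p = 4.46e-13 in limma).
E4 libraries were at 1481, 1272, 1213, 1087 and 1095 untreated and at 995, 1032, 972, 868 and 969 after myelin. They exceeded E3 by 0.90 ± 0.08 untreated (adjusted p = 9.45e-10 in limma) and by 0.76 ± 0.08 after myelin (adjusted p = 5.11e-08), with no overlap. E4 and WT differed by 0.04 untreated, and after myelin every E4 library lay below every WT library. Rps9 was also called lower in KO than in WT, by -0.27 untreated and -0.38 after myelin. The 4 calls of E3 against WT and E4 against E3 held in each of the 18 alternatives run for them, the covariate fit included. These differences lay between 0.83 and 0.94 for untreated E4 against E3 and between -1.08 and -0.80 for untreated E3 against WT.
Rps9 lies on chromosome 7 at 3703993 to 3706897 (plus strand, mm10 coordinates from GENCODE), and Apoe, the altered gene, lies 16 Mb away on the same chromosome at 19696109 to 19699188. Of the other 13 members on chromosome 7, 0 were lower in untreated E3 than in WT, beside 25.6% of all genes, and 1, Rps13, was lower after myelin. Of all 78 members 61 were higher and only 2 lower in that untreated comparison, so this count says little about the chromosome. Genes of chromosome 7 outside the members were not examined, and the part of the altered locus was not tested. Rpl28, 14.9 Mb from Apoe, was higher in untreated E3 than in WT by 0.53, and Rps16, 8.65 Mb away, by 0.45. Rps9 still followed the other members from library to library, with a correlation of 0.93 to their mean after group means were removed.

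**Figure D5:**
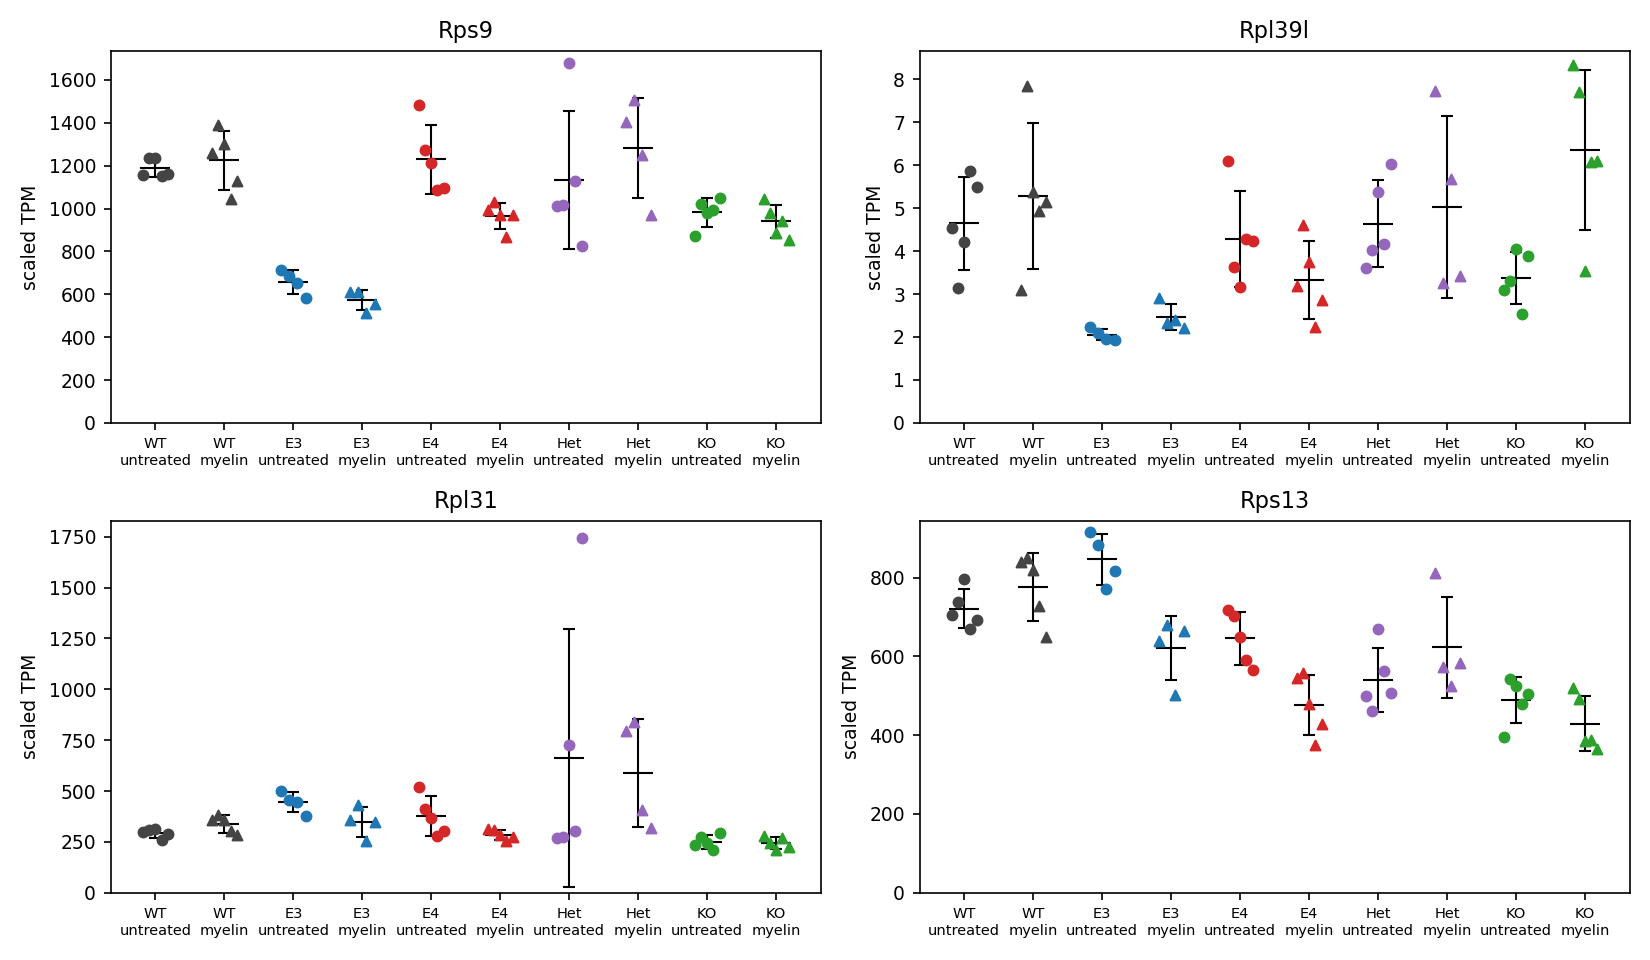
Scaled TPM of Rps9, Rpl39l, Rpl31 and Rps13 in each library by genotype and treatment (circles untreated, triangles myelin, bars group mean ± SD), on linear axes that start at 0. The group means of Rps9 and Rpl39l are lowest in E3, Rpl31 is higher in untreated E3 than in WT, and Rps13 is lower in KO than in WT in both conditions.

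The group means of Rpl39l were also lowest in E3. Untreated E3 libraries were at 2.23, 2.08, 1.96 and 1.94 scaled TPM and untreated WT libraries at 4.53, 3.14, 4.20, 5.87 and 5.48 (-0.87 ± 0.19, adjusted p = 0.00033 in limma), without overlap. After myelin the difference was -0.82 ± 0.19 (adjusted p = 0.0011 in limma). Untreated E4 exceeded untreated E3 by 0.77 ± 0.19, also without overlap. These levels are near or below the filter, so folds on the log2(scaled TPM + 1) scale understate the change. All untreated E3 libraries lay below the 5 scaled TPM of the filter. Rpl39l thus passed it through groups where it is higher, and its p-values here are given as a description. Rpl39, its widely expressed counterpart, differed the other way, higher in untreated E3 than in WT by 0.42.

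Rps27l was lower than in WT in E4, KO and Het but did not pass in E3. It was lower than WT by -0.26 in untreated E4 and by -0.46 in untreated KO, and by -0.42 and -0.48 after myelin, and lay at 0.14 in untreated E3 (adjusted p = 0.131 in limma) and at -0.15 after myelin (adjusted p = 0.144). Of its 31-base words 22.9% occur in other genes, less than for the middle member.

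Other genes of protein synthesis, taken as fixed lists, moved partly with the members. Among the 7 ribosomal proteins or relatives outside the name rule, 4 were lower in untreated KO than in WT and 5 after myelin. Rpl22l1, a paralog of Rpl22, had the largest difference (-0.82, adjusted p = 1.04e-05 in limma).
Among 21 tested translation factors and other TOP genes, 13 were lower in untreated E4 than E3 and 0 higher, and 15 were lower in untreated KO than WT and 1 higher. Npm1, a nucleolar chaperone, was lower in E4 than E3 by -0.60 (adjusted p = 7.59e-10 in limma). Eef1a1, the most abundant elongation factor, was lower by -0.22 there and had -0.03 in untreated KO against WT. Eif3f, a subunit of an initiation factor, was higher than in WT in both untreated E3 (1.31) and untreated KO (1.51).
Among 35 ribosome biogenesis genes, 29 were lower in untreated KO than WT and 2 higher, 27 were lower in untreated E4 than WT and 2 higher, and 20 were lower in untreated E4 than E3. Nop58, a core protein of the particles that methylate ribosomal RNA, was lower in untreated KO by -1.30 and Rrs1, an assembly factor, was higher by 1.81. In untreated E3 against WT, where 61 members were higher, 16 biogenesis genes were lower and 2 higher. The shares for all genes are those given with each comparison above.
Among 18 genes of TORC1 and TOP control, Eif4ebp1, a translation repressor, was lower in untreated E4 than E3 by -0.71 and in untreated KO than WT by -0.80, while Eif4ebp2 was higher in KO by 2.34 and Ddit4 lower by -1.65. In all, 7 of these 18 genes were lower and 4 higher in untreated KO than WT, beside 29.5% of all genes lower and 26.5% higher.
Of the 78 mitochondrial ribosomal protein genes, 54 were higher in untreated E3 than in WT and 2 lower, 38 were higher in untreated E4 and 9 lower, and 7 were higher in untreated KO and 29 lower. Of all genes, 29.1% were higher and 25.6% lower for E3, 32.6% and 31% for E4, and 26.5% and 29.5% for KO.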

How the data were processed

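Per the submitters' processing notes, Salmon 0.13.1, limma 3.40.6 and build mm10 were used, with no roles given. The deposited TPM values, 1 column per library, carry no read counts, so sequencing depth is unknown. Each library was divided by its nuclear protein-coding total without mitochondrial genes. limma 3.58.1 (trend) in R 4.3.3 was run on log2(scaled TPM + 1), with Benjamini-Hochberg adjustment over 10905 genes (10629 coding, 276 lincRNA) and a threshold of 0.05. WT, E3, E4 and KO were fitted together over 38 libraries. Het comparisons used all 47 with library weights. On simulated data over 10905 genes, 98% of 2-fold and 77% of 1.5-fold changes were recovered for untreated E4 against E3, with 13 false calls, 92% and 74% for the E4 myelin response, with 6, and 92% and 72% for the WT myelin response, with 8. Coordinates come from GENCODE M21 and promoters from RefSeq.

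Members and lists were chosen with earlier results of these data known. Named members were, per comparison, up to 5 called with the largest difference in each direction, plus paralogs and members chosen by role. Rps18 in E4 and the chromosome 7 members were picked after their values were seen. A few genes that the rule names are not reported here. Of 23 pairs of equal replicate number, 5 had a residual correlation above 0.1, so the numbers were not treated as pairs.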

Additional observations from a re-analysis of the deposited data

Results flagged for a closer look

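In 11 measures over 10 groups (110 group values), 6 had 1 library set apart from the rest of its group by Dixon's test, and chance flags about 1 in 20. Rps12 was at 1178 scaled TPM in Het untreated replicate 5, with the others at 40.7 to 64.5, and Rps27l was at 217 in the same library, with the others at 512 to 579; its coding share was 0.468%. Rps29 was at 3914 in Het untreated replicate 3, with the others at 1279 to 1686, and at 1702 in KO myelin replicate 1, with the others at 1299 to 1363. Rpl10 was at 576 in WT myelin replicate 2, with the others at 440.2 to 468, and at 360.0 in E4 untreated replicate 1, with the others at 409 to 417.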

How the results depend on the processing

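The member median changed sign to 0.18 in untreated Het against WT without weights, to -0.32 in untreated E4 against WT with the coding share as a covariate, to -0.009 and -0.045 in the Het response with that covariate and with a replicate block, and to 0.17 and 0.04 in the E4 against E3 and KO against WT responses with the covariate. Counts are members called of 78, and the coding share covariate, the unweighted fit without the 4 Het libraries and the summed copies were chosen after seeing the data. The share of all genes called also moved between these settings and is given with each comparison above. With TMM factors the myelin responses gave 2 in E3, 29 in E4 and 2 in Het. E4 against E3 gave 14 untreated and 4 after myelin, and untreated E3, E4 and Het against WT gave 40, 5 (all lower) and 6. With a pseudocount of 0.1 the Het response gave 22. With no filter on low values (26293 genes) the responses gave 7 in E3, 31 in E4 and 0 in Het, and E4 against E3 after myelin gave 12. With library weights in the fit of 8 groups the E3 response gave 35, the KO response 2, and E4 against E3 54 untreated and 63 after myelin. With no weights over all 47 libraries, Het libraries included, the responses gave 0 in E3, 1 in E4, 0 in KO and 0 in Het. E4 against E3 gave 4 and 1, untreated E3, E4 and KO against WT gave 16, 2 and 23, and after myelin these gave 2, 22 and 47. Rpl39 in Het against WT turned to 0.059 there.

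With the coding share as a covariate the responses gave 45 in E3, 0 in E4, 2 in KO and 0 in Het, and 4 for E4 against E3 responses. E4 against E3 gave 72 and 15. Against untreated WT, E3 gave 3, E4 59 and Het 74, and E3 gave 30 after myelin, while KO gave 71 and 72 and E4 after myelin 74. Single members changed sign with the covariate. In the Het response these were Rpl13a (-0.035) and Rpsa (-0.00024), and in untreated E3 against WT Rpl28 (-0.030), Rpsa (-0.080) and Rpl41 (-0.019). In untreated E4 against WT they included Rps29 (-0.10), Rpl31 (-0.22), Rpl41 (-0.26), Rps4x (-0.17), Rpl11 (-0.29), Rps19 (-0.29), Rps27a (-0.28) and Rpsa (-0.45), and in E3 against WT after myelin Rpsa (-0.19) and Rpl41 (-0.18). With copies summed, Rpl10 turned to -0.12 in the E4 response, 0.37 in the Het response and 0.21 in untreated E4 against WT, and Rpl5 to 0.51 in the Het response and 0.28 in untreated E3 against WT. Without the 4 Het libraries of low coding share and without weights, 2 choices changed together, the Het response gave 0. With the members left out of the coding total, they summed to 7.10% in untreated E3 and 5.52% in untreated WT. The cause of these changes was not tested.

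Leaving out 1 library gave 0 to 0 in the WT response, 1 to 15 in E3, 7 to 65 in E4, 0 to 1 in KO and 0 to 62 in Het. E4 against E3 gave 17 to 57 untreated and 4 to 56 after myelin. Against untreated WT, E3 gave 46 to 66, E4 8 to 19, KO 38 to 52 and Het 3 to 37, and after myelin E3 gave 2 to 5, E4 43 to 64 and KO 71 to 75. Both tests of a difference between responses gave 0.

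With a replicate block the responses gave 33 in E3, 64 in E4, 0 in KO and 4 in Het, of which 1 was higher and 3 lower. The block fits called 7.34%, 14.8%, 2.82% and 14.2% of all genes in these responses. In Het, Rpl13a (-0.14), Rpl21 (-0.077), Rps23 (-0.15), Rps27a (-0.12) and Rpsa (-0.088) changed sign with the block. Whether libraries of equal number share an animal or culture is not known from the labels. Of 23 such pairs 5 correlated above 0.1, the highest at 0.46 in E4, and 3 libraries correlated best with their own number. These correlations cannot settle the pairing. Sequencing depth is unknown here, and the number of libraries limits the precision.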
